A study of Mus musculus with 8 samples.

Results

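The neurotrophin genes and their receptors were followed in poly(A) RNA of the mouse hippocampus. The 7 genes were taken by name from a table of read counts per gene, by a rule that uses no measured value: the ligands Bdnf, Ntf3 and Ntf5, the receptor kinases Ntrk2 and Ntrk3, the p75 receptor Ngfr and the sorting receptor Sort1. Each name had 1 row, so that 7 of the 46078 rows of the table were members, and 6 of the 7 passed the filter on low counts that left 15996 genes for testing. Ntf5 did not pass it. The libraries came from 9-week-old C57BL/6J mice of 2 genotypes, wild type (WT, 4 libraries) and Tg(Camk2a-cre)T29-1Stl carriers of genotype Cre+/- (T29-1 Cre, 4 libraries). In these carriers Cre recombinase is made from the Camk2a promoter, which is active in excitatory neurons of the forebrain. Neither genotype is labelled with a floxed allele or a treatment, and nothing in the labels says that each library is a separate animal or whether mice were littermates, so p-values describe only the spread among these libraries, which may be technical.

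Neurotrophins are secreted proteins that support the survival of neurons and tune synapses. They are made as precursors and cut by furin and related proteases. Mature BDNF, the product of Bdnf, and neurotrophin-4, the product of Ntf5, bind the kinase TrkB (Ntrk2), whereas neurotrophin-3 (Ntf3) prefers TrkC (Ntrk3). The uncut precursors bind the p75 receptor together with sortilin, the product of Sort1, which also carries BDNF through the secretory pathway. In the hippocampus BDNF is best known for its part in long-term potentiation, and its gene is switched on by neuronal activity from several alternative promoters.

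No gene of this group differed between the genotypes past the threshold, a Benjamini-Hochberg adjusted p under 0.05 in edgeR's quasi-likelihood test over all tested genes. The test called 0 of the 6 tested members, where it called 1 of 15996 genes (0.00625%), St6gal2, which encodes a sialyltransferase and is no member. The adjusted p was 0.998 for each of the 6, and DESeq2 and limma-voom also called 0 of them. At an unadjusted p under 0.05, both of these tools also picked Bdnf alone, where they picked 1.67% (DESeq2) and 2.41% (limma-voom) of all tested genes. Of the 6, 5 had a higher and 1 a lower value in T29-1 Cre, with a median log2 fold change of 0.08, beside 49.7% of all tested genes with a higher value and a median of -0.00. Without WT replicate 4 the tally was 3 higher and 3 lower, with a median of 0.01, and without T29-1 Cre replicate 4 it was 4 higher and 2 lower. Bdnf was the 1 member with a lower value, the 1 member at an unadjusted p under 0.05 and the 1 tested member with no overlap between WT and carrier libraries, against 2.43% of all tested genes at that unadjusted p and 1.81% without overlap.

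The libraries held 23358289 to 30882631 counts. In a principal component analysis of log2 CPM (read counts scaled to library size), the first component gave WT replicate 4 a score of -33.4 and the remaining libraries scores of -0.69 to 8.74. All values in CPM below use library sizes scaled by TMM (trimmed mean of M values). The tissue was described with 15 lists of cell type markers. Of the 118 marker genes found in the count table, 0 were at 0 counts over all libraries. This holds for every list, also those of cells outside the hippocampus, so it does not check the hippocampal origin. Among them, 8 of 8 markers of excitatory neurons and 8 of 8 of dentate granule cells were tested. Of the 6 markers of basal forebrain cholinergic neurons 1 was, and Chat, Slc18a3, Isl1, Lhx8 and Gbx1 fell below the filter. In bulk tissue, fewer cells of a type and less RNA per cell cannot be told apart.

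Bdnf (ENSMUSG00000048482.14) codes for BDNF and occupies bases 109674700 to 109727007 of chromosome 2 in GRCm38 (plus strand), with 11 annotated transcripts in GENCODE M21, all of them coding. The count table gives 1 value per gene, so the alternative 5′ exons and their promoters are summed in it. RefSeq places 7 start windows in Bdnf, of which 2 are shown because each holds a match to one of the motifs searched. The factor CREB is known to switch on this gene with activity through the cAMP response element. The letters searched were TGACG, the half-site of the cAMP response element, and TCACGTNA, a longer motif that contains the half-site only where N is C, each on both strands in the 250 bases before every start. TCACGTNA was found in 2 of the 7 Bdnf windows and in 1.4% of 32851 windows of the genome's genes. TGACG was found in 1 of the 7 and in 17.8% of the 32851. It is not recorded that the longer motif was chosen without knowledge of the Bdnf sequence. These shares are therefore no test of enrichment. Both windows, from the GRCm38.p6 table, are printed 5′ to 3′ on the plus strand with the matches in capitals.
Start 1, chr2:109674450-109674699: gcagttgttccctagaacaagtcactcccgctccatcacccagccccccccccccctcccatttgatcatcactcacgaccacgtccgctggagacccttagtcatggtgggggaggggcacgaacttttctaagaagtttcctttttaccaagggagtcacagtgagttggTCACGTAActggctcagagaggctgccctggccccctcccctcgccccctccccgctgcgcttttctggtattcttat
Start 3, chr2:109692186-109692435: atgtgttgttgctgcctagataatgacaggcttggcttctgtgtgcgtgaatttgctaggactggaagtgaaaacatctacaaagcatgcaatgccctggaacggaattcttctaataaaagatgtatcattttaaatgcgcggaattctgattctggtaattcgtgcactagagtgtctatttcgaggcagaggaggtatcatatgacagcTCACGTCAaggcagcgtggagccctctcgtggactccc
In the window of start 3, TCACGTNA and TGACG overlap in the same run of capitals, whose last base lies 31 bases before the start. In the window of start 1 the match ends 71 bases before the start. Windows were also found for Ntf3, Ntrk2 and Ngfr, with 0 matches to either motif. Ntf5, Ntrk3 and Sort1 had no entry. These matches describe the sequence alone, since the counts do not separate the starts.

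Bdnf was lower in the T29-1 Cre libraries by a small margin that did not pass the threshold. The WT libraries held 63.1, 58.0, 55.5 and 54.5 CPM for replicates 1 to 4, and the T29-1 Cre libraries 52.5, 52.0, 54.2 and 53.2 CPM. All 4 WT libraries lay above all 4 T29-1 Cre libraries, but the lowest WT library, replicate 4, and the highest T29-1 Cre library, replicate 3, were almost level. Bdnf averaged 57.8 ± 3.85 CPM across WT and 53.0 ± 0.956 CPM across carrier libraries (SD, n = 4 each), and the change fitted by edgeR was -8.22%, with a 95% interval from -15.3 to -0.497. On the log2 scale the difference was -0.12 (SE 0.0542, unadjusted p = 0.039, adjusted p = 0.998, edgeR), which put Bdnf at rank 280 by p. The exact two-sided permutation test over the 70 assignments gave p = 0.0286, the smallest it can give. Of all tested genes, 0.963% had every T29-1 Cre library below every WT library, a share that counts 154 genes.

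The size of the Bdnf difference rested in part on WT replicate 1, its highest library. Without it the log2 fold change was -0.08 (unadjusted p = 0.147, edgeR), and without WT replicate 4 it was -0.15 (unadjusted p = 0.007). In WT replicate 1 the oligodendrocyte, blood cell and ependymal cell markers also lay above their means over the 8 libraries, with median log2 deviations of 0.263, 0.702 and 0.743, and those of the choroid plexus lay below, at -0.495. Their part in the Bdnf value was not tested. The authors' deposited table lists -0.12 for Bdnf on the log2 scale, with an unadjusted p of 0.0517. The antisense gene Gm45346 overlaps exons of Bdnf over 896 bases on the opposite strand. The libraries were made with a directional kit, but the strand setting of the counting is not known here, so antisense reads may be included.

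Ntf3 (ENSMUSG00000049107.13) lies on the minus strand of chromosome 6, from 126101412 to 126166910, and no other annotated gene overlaps it. It was a low transcript with 94 to 187 reads per library. WT replicates 1 to 4 held 3.52, 4.28, 6.04 and 6.39 CPM and the T29-1 Cre libraries 6.08, 5.59, 6.75 and 4.39 CPM. Both genotypes spread over nearly the same range, with low libraries in WT (replicates 1 and 2) and in T29-1 Cre (replicate 4). The means were 5.06 ± 1.38 and 5.70 ± 0.998 CPM (SD, n = 4 each), and the log2 fold change was 0.17 (SE 0.183, adjusted p = 0.998, edgeR), with a fold interval from 0.859 to 1.48. The exact permutation test gave p = 0.429. Ntf3 varied more between libraries than counting alone gives, with a coefficient of variation of 27.3% in WT and 17.5% in T29-1 Cre where counting noise is 8.4%.

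Without WT replicate 1 the log2 fold change of Ntf3 was 0.03, and without WT replicate 2 it was 0.10. It was 0.08 without T29-1 Cre replicate 3. It was 0.28, 0.30 and 0.28 without WT replicate 3, WT replicate 4 and T29-1 Cre replicate 4. Among the T29-1 Cre libraries, Ntf3 was highest in replicate 3 and lowest in replicate 4, with log2 deviations of 0.356 and -0.258 from the mean of all libraries. The same 2 libraries held the highest and the lowest median of the 8 dentate granule cell markers, at 0.247 and -0.248. Other markers also moved in T29-1 Cre replicate 4, where those of CA2 and CA3 pyramidal cells had their highest median, at 0.289, and those of CA1 pyramidal cells, meningeal fibroblasts and blood cells their lowest, at -0.212, -0.510 and -0.353. In T29-1 Cre replicate 3 the choroid plexus markers had their highest, at 0.629. In WT the marker medians ran from -0.0231 to 0.113 while Ntf3 ran from -0.571 to 0.278. The summed level of these markers was 564 to 606 CPM in WT and 484 to 663 CPM in T29-1 Cre, and the part of these and the other markers in the Ntf3 values was not tested.

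Ntf5 (ENSMUSG00000074121.3, chromosome 7, plus strand, 45413695 to 45417179), the gene of neurotrophin-4, was close to the limit of detection. In WT the libraries held 1, 4, 6 and 2 reads and the T29-1 Cre libraries 4, 2, 5 and 4. Summed over a genotype these were 13 and 15 reads, or 0.123 CPM in WT (exact 95% Poisson interval 0.0652 to 0.21) and 0.144 CPM in T29-1 Cre (0.0807 to 0.238). The ratio of T29-1 Cre to WT was 1.18 with an exact interval of 0.522 to 2.69, so that differences within that interval were not detectable at this depth. These intervals cover counting error only.

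**Figure D1:**
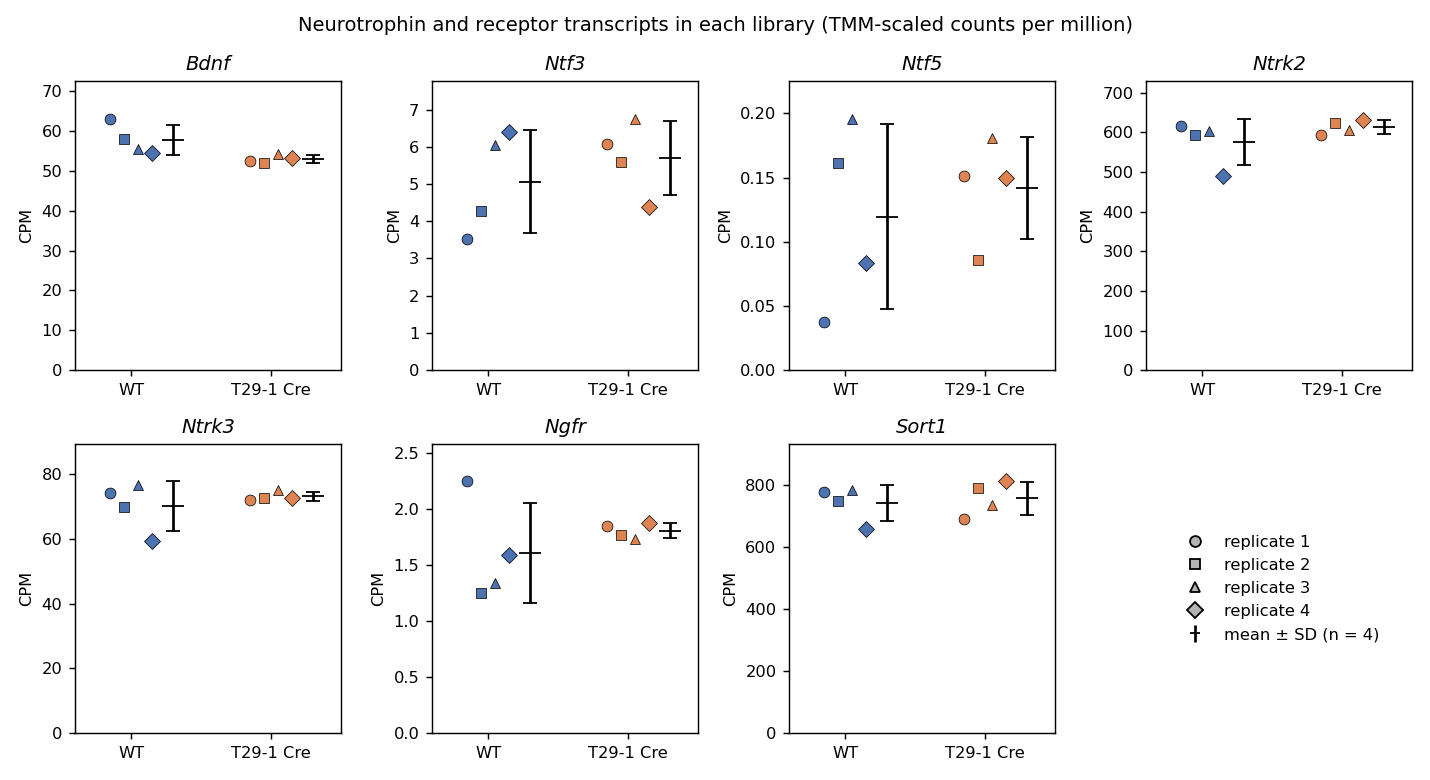
CPM (TMM-scaled, vertical axes from 0) of the 7 genes in each library, with symbols for the replicate number and bars for the mean ± SD of 4 libraries per genotype. Bdnf is the panel in which the genotypes are apart, by a narrow margin, and WT replicate 4 is the low point for Ntrk2, Ntrk3 and Sort1.

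Ntrk2 (ENSMUSG00000055254.15, chromosome 13, plus strand, 58806569 to 59133970) encodes TrkB, the receptor of BDNF and neurotrophin-4. It was the most expressed receptor kinase here, with 11749 to 18515 reads per library. The WT libraries held 617, 594, 604 and 491 CPM and the T29-1 Cre libraries 594, 625, 605 and 630 CPM. Apart from WT replicate 4, which lay far below, all 7 libraries fell between 594 and 630 CPM and the genotypes overlapped. The means were 576 ± 57.8 and 614 ± 16.8 CPM (SD, n = 4 each), and the log2 fold change was 0.09 (SE 0.0646, adjusted p = 0.998, edgeR), with a fold interval from 0.967 to 1.17. The exact permutation test gave p = 0.2. Without WT replicate 4 the log2 fold change was 0.02.

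The count of Ntrk2 sums its 10 annotated transcripts, of which 7 are coding. They include full-length TrkB and truncated forms without the kinase, of which the short T1 form is known from astrocytes, and these cannot be separated in the table. The 10 astrocyte markers summed to 4437 to 5548 CPM in WT and 5336 to 5545 CPM in T29-1 Cre. Their median log2 deviation was lowest in WT replicate 4, at -0.0862. Markers of other cells moved further in that library. Endothelial and mural, ependymal and choroid plexus markers had medians of -0.282, -0.241 and -0.234 there. The highest median there was that of the microglia markers, at 0.123. The part of the astrocyte and other markers in the Ntrk2 value was not tested.

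Ntrk3 (ENSMUSG00000059146.12, chromosome 7, minus strand, 78175959 to 78738012) encodes TrkC, the receptor of neurotrophin-3. The WT libraries held 74.2, 69.98, 76.8 and 59.3 CPM and the T29-1 Cre libraries 71.996, 72.7, 75.2 and 72.7 CPM. The T29-1 Cre libraries lay inside the range of the WT libraries, and WT replicate 4 was again the low one. The means were 70.1 ± 7.7 and 73.1 ± 1.39 CPM (SD, n = 4 each). The fitted log2 difference was 0.06 (SE 0.0689, adjusted p = 0.998, edgeR), with a fold interval from 0.941 to 1.16. The exact permutation test gave p = 0.6. Without WT replicate 4 the log2 fold change was -0.01. As with Ntrk2, kinase and truncated forms are summed over 20 annotated transcripts, of which 6 are coding. The antisense gene Gm9885 lies within Ntrk3, shares 0 exon bases with it and held 162 to 204 reads per library.

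Ngfr (ENSMUSG00000000120.6, chromosome 11, minus strand, 95568818 to 95587735) encodes the p75 receptor, which binds every neurotrophin and, with sortilin, their precursors. It was scarce, with 31 to 60 reads per library. WT replicates 1 to 4 held 2.24, 1.25, 1.34 and 1.59 CPM and the T29-1 Cre libraries 1.85, 1.76, 1.73 and 1.87 CPM. The highest and the 3 lowest libraries were all WT, so the T29-1 Cre values fell within the WT range. The means were 1.61 ± 0.45 and 1.81 ± 0.068 CPM (SD, n = 4 each), and the log2 fold change was 0.17 (SE 0.196, adjusted p = 0.998, edgeR), with a fold interval from 0.84 to 1.51. The exact permutation test gave p = 0.314. Counting noise alone is 14.9% at this depth, above the 3.77% coefficient of variation in T29-1 Cre and below the 28.0% in WT. Without WT replicate 1, the high library, the log2 fold change was 0.38, and without WT replicates 2 and 3 in turn it was 0.07 and 0.08.

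Sort1 (ENSMUSG00000068747.14, chromosome 3, plus strand, 108284082 to 108361511) encodes sortilin. It was the most abundant of the 7 transcripts, with 15741 to 24058 reads per library. In WT the libraries held 778, 749, 785 and 658 CPM and the T29-1 Cre libraries 691, 790, 735 and 812 CPM. Both genotypes had high and low libraries and overlapped over most of their range. The means were 743 ± 58.7 and 757 ± 54.6 CPM (SD, n = 4 each), and the log2 fold change was 0.03 (SE 0.0651, adjusted p = 0.998, edgeR), with a fold interval from 0.925 to 1.12. The exact permutation test gave p = 0.743. The sign changed without WT replicate 4, to -0.03, and without T29-1 Cre replicate 4, to -0.01, and the value was 0.01 without T29-1 Cre replicate 2, 0.07 without T29-1 Cre replicate 1, 0.05 without WT replicate 1 and 0.06 without WT replicate 3. An antisense gene, Gm12523, overlaps Sort1 and held 2 to 12 reads per library.

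**Figure D2:**
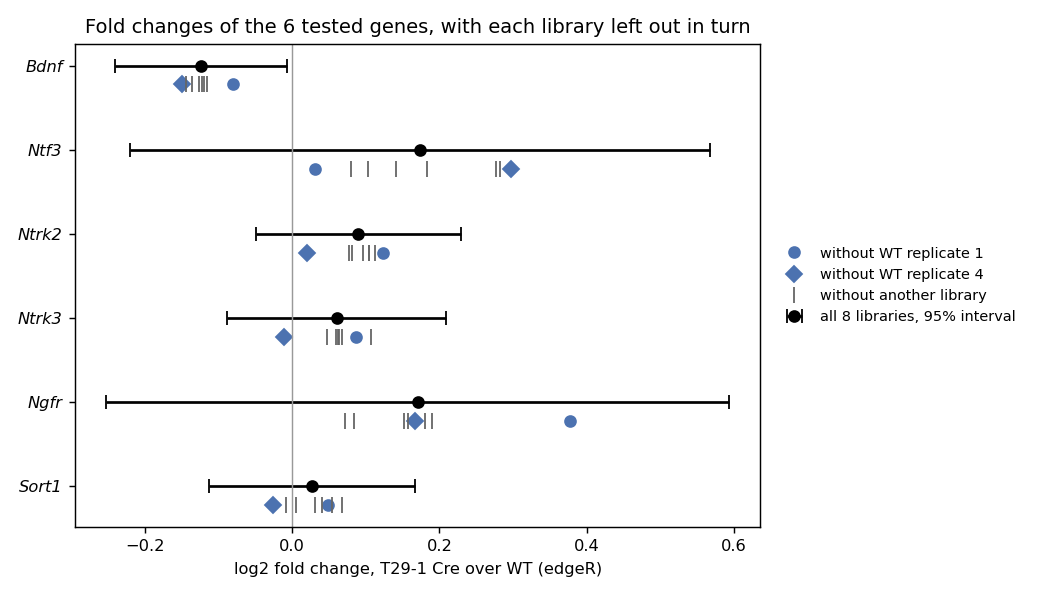
Log2 fold changes of T29-1 Cre over WT for the 6 tested genes (black points, bars for the 95% interval, edgeR) with the values after leaving out each library in turn below them (blue circles without WT replicate 1, blue diamonds without WT replicate 4, ticks without another library). The interval of Bdnf alone lies below 0, at an adjusted p of 0.998, and the values of Ntrk2, Ntrk3 and Sort1 move to between -0.03 and 0.02 without WT replicate 4.

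Ntrk2, Ntrk3 and Sort1 were each lowest in WT replicate 4. There Ntrk2, Ntrk3 and Sort1 lay 0.301, 0.311 and 0.229 below the mean of the other WT libraries on the log2 scale (deviations of -0.301, -0.311 and -0.229), while Ntf3 lay 0.501 above it. All 3 have long transcripts, their longest coding ones measuring 8.74, 19.7 and 6.84 kb. In the same library, 555 genes whose longest coding transcript is at least as long as that of Ntrk2 had a median deviation of -0.337, against 0.00610 for all 10761 genes compared at a mean of at least 5 CPM. For 1277 genes at least as long as Sort1 it was -0.277. For the 12 genes at least as long as Ntrk3 it was -0.310. The 3 genes deviated there by amounts near these medians. The part of transcript length in their values was not tested, and the lengths are those of annotated transcripts. In the other 7 libraries Ntrk2 deviated from the mean of the other libraries of its genotype by -0.0616 to 0.138. For the other WT libraries that mean includes the low WT replicate 4. Bdnf, at 4.27 kb, deviated by -0.110 in WT replicate 4, where the 3804 genes at least as long had a median of -0.158.

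**Figure D3:**
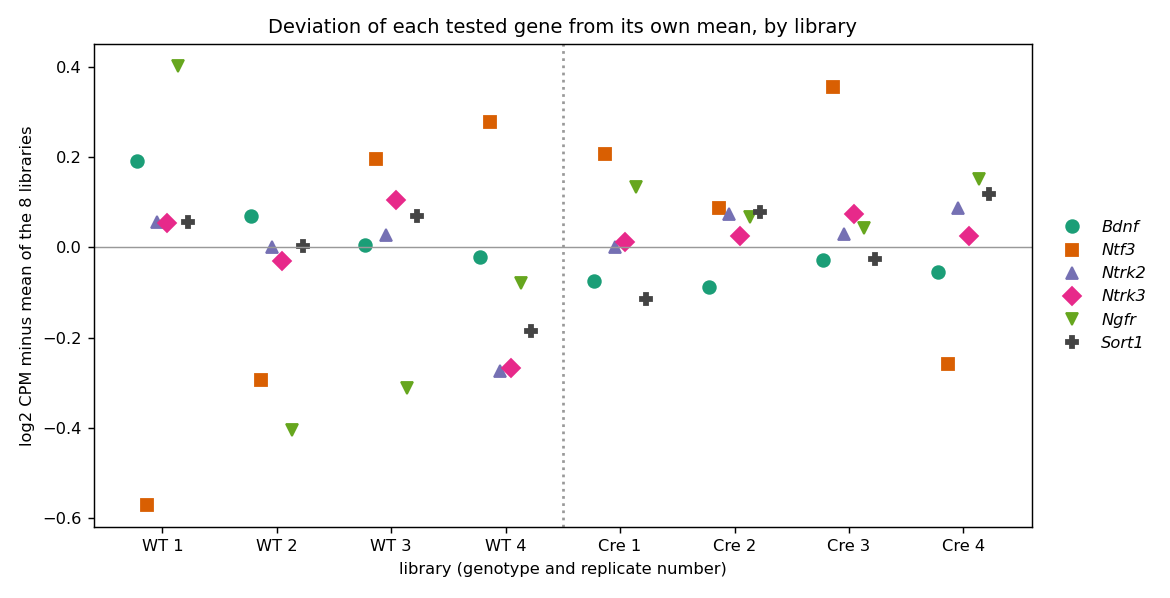
Log2 CPM of the 6 tested genes minus the mean of the 8 libraries, by library, with WT left and T29-1 Cre right of the dotted line. Ntrk2, Ntrk3 and Sort1 move together to -0.273, -0.267 and -0.186 in WT replicate 4, Bdnf and Ngfr are highest in WT replicate 1, and Ntf3 spreads from -0.571 to 0.356.

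Levels were compared between genes per kilobase of the longest coding transcript. Over the 8 libraries Sort1 stood at 110 ± 7.75 CPM per kb, followed by Ntrk2 at 68.0 ± 5.04 and Bdnf at 13.0 ± 0.852 CPM per kb (SD, n = 8 each). Sort1 was thus above 96.8%, Ntrk2 above 93.9% and Bdnf above 64.3% of the 13646 tested genes that could be ranked. Ntrk3 at 3.63 ± 0.273 and Ntf3 at 3.63 ± 0.788 CPM per kb came next, then Ngfr at 0.495 ± 0.0918 and Ntf5 at 0.0666 ± 0.0281 CPM per kb (SD, n = 8 each). Ntrk3 and Ntf3 did not differ beyond their spread, with libraries from 3.01 to 3.90 and from 2.37 to 4.55 CPM per kb. The other neighbours in this order had no library in common range. With the length of all annotated exons in place of the longest coding transcript, an alternative chosen after seeing the data, the level of Ntrk2 was 30.8 CPM per kb and Ntrk3, at 2.37, came below Ntf3, at 3.14 CPM per kb. Ntrk2 stood above Ntrk3 with either length. Both lengths give Ntrk3 more bases than Ntrk2 (19.7 against 8.74 kb, and 30.2 against 19.3 kb), which widens their distance. Without division by length, libraries held 491 to 630 CPM of Ntrk2 and 59.3 to 76.8 CPM of Ntrk3. Which of their transcripts are expressed is not known here.

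**Figure D4:**
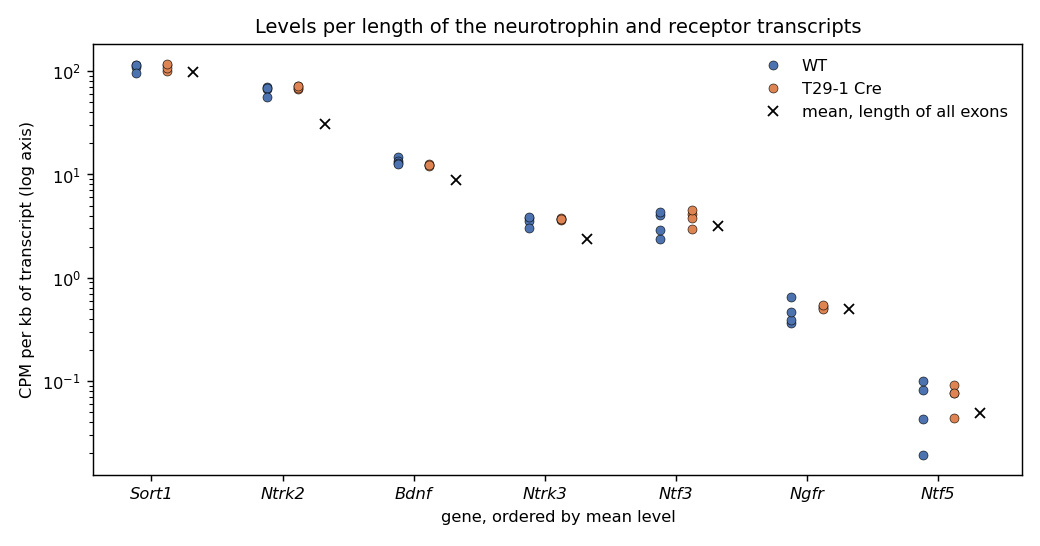
CPM per kb of the longest coding transcript (log axis) for the 7 genes in each library of WT (blue) and T29-1 Cre (orange), ordered by their mean, with crosses for the mean per kb of all annotated exons. The genes span from 110 CPM per kb for Sort1 to 0.0666 CPM per kb for Ntf5, and Ntrk3 and Ntf3 share a level.

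Ratios of counts within a library do not depend on how libraries are scaled. For BDNF and its receptor, WT libraries held 10.2, 9.77, 9.18 and 11.1 Bdnf reads per 100 Ntrk2 reads and T29-1 Cre libraries 8.84, 8.33, 8.96 and 8.45. All 4 WT ratios lay above all 4 T29-1 Cre ratios, with means of 10.1 ± 0.805 and 8.64 ± 0.301 (SD, n = 4 each). The ratio uses the Bdnf counts already described, and its highest value came from WT replicate 4, where Ntrk2 was low. Set against Sort1, Bdnf stood at 7.80 ± 0.536 reads per 100 across WT and 7.03 ± 0.537 across carrier libraries (SD, n = 4 each), and the genotypes overlapped. For neurotrophin-3 and its receptor the values were 7.37 ± 2.604 Ntf3 reads per 100 Ntrk3 reads across WT and 7.79 ± 1.28 across carrier libraries (SD, n = 4 each), also with overlap. Ntrk2 stood at 77.5 ± 2.20 reads per 100 Sort1 reads across WT and 81.3 ± 3.72 across carrier libraries (SD, n = 4 each). The genotypes overlapped there too. No test was made of these ratios, and how often ratios of other gene pairs separate was not computed.

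The rest of the pathway was described by 6 lists, from the proteases that cut the precursors to genes induced by BDNF. They held 145 distinct tested genes, of which edgeR called 0 over all genes. Of these, 2 (1.38%) were at an unadjusted p under 0.05, beside 2.43% of all tested genes, and 3 (2.07%) had libraries that did not overlap, beside 1.81%. Of the 145, 90 (62.1%) had a higher and 55 a lower value in T29-1 Cre, beside 49.7% of all tested genes with a higher value. The median log2 fold change of the 145 was 0.02. Without WT replicate 4 the counts were 78 higher (53.8%) and 67 lower, with a median of 0.01, beside 48.8% of all genes tested then with a higher value.

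Among genes that process and sort neurotrophins, 0 of 19 tested passed in either direction. Of the 19, 16 had a higher value (median log2 fold change 0.05), beside 49.7% of all tested genes (median -0.00). The 3 with the smallest p were Cadps2, which promotes release of BDNF-containing vesicles, at 0.10 (SE 0.06), the convertase Furin at 0.08 (SE 0.0546), and the convertase Pcsk1 at 0.18 (SE 0.126). Each value is a log2 fold change with an edgeR adjusted p of 0.998. Plg and Mmp3 were among the genes below the filter. With 1 library left out in turn the median of this list ran from 0.0346, without WT replicate 4, to 0.0714, without WT replicate 3.

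Of 36 adaptors and early signalling genes of the Trk receptors, 0 passed, 20 had a higher and 16 a lower value (median log2 fold change 0.02). Nck1, an SH2 and SH3 adaptor, averaged 18.0 ± 0.807 CPM across WT and 16.1 ± 0.708 CPM across carrier libraries (SD, n = 4 each). Without overlap, its log2 fold change was -0.16 (SE 0.065, unadjusted p = 0.0273, adjusted p = 0.998, edgeR). The small GTPase gene Rap1a was at -0.08 (SE 0.0493) and Gab2, a docking protein gene, at 0.11 (SE 0.0684). Without WT replicate 4 the median of the adaptors was 0.00289, and without T29-1 Cre replicate 2 it was 0.00577. Of 30 genes of the kinase cascades below the receptors, 0 passed, 18 had a higher and 12 a lower value (median 0.02). That median turned to -0.00876 without WT replicate 4, and it was 0.0129, 0.0146 and 0.0127 without T29-1 Cre replicates 2, 3 and 4 in turn. There Akt2 was at -0.11 (SE 0.0519), the PI3-kinase subunit gene Pik3r1 at 0.12 (SE 0.0589), and Eef2k, the kinase of elongation factor 2, at 0.08 (SE 0.0513) without overlap.

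Of 25 partners and cleaving enzymes of the p75 receptor, 0 passed, 16 had a higher and 9 a lower value (median log2 fold change 0.03). The median was 0.00981 without WT replicate 4, 0.00887 without T29-1 Cre replicate 3 and 0.0133 without WT replicate 3. The stress kinase gene Mapk8 averaged 94.3 ± 7.88 CPM across WT and 104 ± 2.49 CPM across carrier libraries (SD, n = 4 each). Its log2 fold change was 0.14 (SE 0.0592, unadjusted p = 0.03, adjusted p = 0.998, edgeR). Ripk2, a kinase that binds the receptor's death domain, was at -0.18 (SE 0.103) and the transcription factor gene Prdm4 at 0.09 (SE 0.0554). Traf2, an adaptor gene named here after its values were seen because its libraries did not overlap, was at -0.11 (SE 0.0791).

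Of 19 regulators of Bdnf transcription, 0 passed, 12 had a higher and 7 a lower value (median log2 fold change 0.01). With 1 library left out in turn the median ran from 0.00104, without T29-1 Cre replicate 2, to 0.0566, without WT replicate 2. The deacetylase gene Hdac2 was at -0.08 (SE 0.0456), the kinase gene Camk4 at 0.14 (SE 0.0958), and Npas4, an activity-induced factor that acts on Bdnf promoters, at 0.26 (SE 0.161). Of 18 genes induced by BDNF or activity, 0 passed, 10 had a higher and 8 a lower value (median 0.00). That median had no stable sign, with values from -0.0505 without WT replicate 3 to 0.0700 without WT replicate 2. Besides Npas4, the smallest p were those of Fos, at 0.14 (SE 0.088), and of the neuropeptide gene Npy, at -0.07 (SE 0.0709). The median deviation of this list ran from -0.174 to 0.143 in WT libraries and from -0.158 to 0.0744 in T29-1 Cre libraries. Its highest library was WT replicate 2 and its lowest WT replicate 3. The relation of this list to the Bdnf values was not tested.

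**Figure D5:**
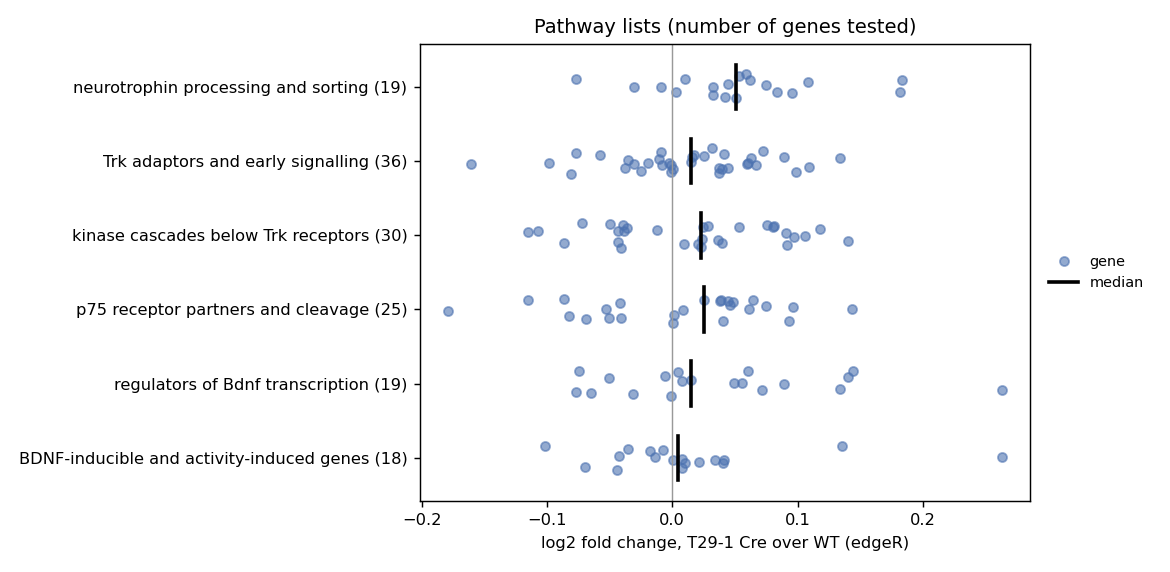
Log2 fold changes of T29-1 Cre over WT (edgeR) of the tested genes in 6 pathway lists, 1 point per gene with vertical scatter for visibility and a black bar at each median. All medians lie between 0.00 and 0.05, and 0 genes passed the threshold.

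For each tested member, the 2 tested genes averaging 5 CPM or more with the highest Pearson correlation of log2 CPM over the 8 libraries were taken as most like it, among 11501 candidates (11502 for Ngfr). They were Fam198a (0.97) and Ccbl1 (0.95) for Bdnf, Il17d (0.98) and Npas2 (0.96) for Ntf3, and Csf1 (0.97) and Tor3a (0.92) for Ngfr. For the genes low in WT replicate 4 they were Nkain3 (0.99) and Usp9x (0.99) for Ntrk2, Ncam2 (0.99) and Nhsl2 (0.98) for Ntrk3, and Dock9 (0.99) and Erc2 (0.98) for Sort1. All 8 libraries were sequenced on the same lane, WT replicate 4 stands apart in many genes, and these likenesses are a description.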

How the data were processed

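Per the labels' protocols, Isogen II was used to extract RNA, 500 ng went into poly(A) selection and directional libraries, and 1 lane gave paired 150 bp reads. Per the submitters' processing notes, the tools were STAR 2.6.1d for GRCm38, featureCounts, and edgeR 3.11. The annotation release and the strand setting of the counting were not given in the sources used here. Raw read counts per gene name (46078 rows) were deposited. A second deposited table gives 17999 genes a p-value, a CPM averaged over libraries (also as log2), and the change as log2 and as a signed fold (a score).

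The counts were tested in R 4.3.3 with edgeR 4.0.16 (filterByExpr with a minimum count of 10, TMM, quasi-likelihood F test, no covariate, adjusted p under 0.05), with limma 3.58.1 (voom) and DESeq2 1.42.0 as alternatives. Other alternatives changed the scaling, the filter, a replicate block and each library left out. Standard errors are the size of the log2 fold change over the square root of F. Permutation tests used log2 CPM with a prior count of 2. Each pair of libraries within a genotype differed by more than counting noise (3.32 to 19.2 in chi-square per df). The main edgeR test was tried on simulated counts, with changes larger than those of the members and in genes that were not low in count. The other tools and scripts were not tried in this way. Positions and lengths are from GENCODE M21, start windows from RefSeq. The members, lists and tests were chosen with earlier results of these data known. The rule for naming genes took all members, genes called over all genes, the 3 genes with the smallest p in each list, and the 2 genes most like each tested member, apart from results that are not reported here. Traf2 was added after its values were seen.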

Additional observations from a re-analysis of the deposited data

How the results depend on the processing

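Of the 6 tested members, edgeR, DESeq2 and limma-voom called 0 in any of the 16 alternatives, and 0 of the pathway genes. Over all genes, 1 gene was called in 14 of them, but with no filter on low counts and with the replicate block, 2 genes were called. Leaving out 1 library at a time gave 1 called gene each time and log2 fold changes from -0.15 to -0.08 for Bdnf, 0.03 to 0.30 for Ntf3, 0.02 to 0.12 for Ntrk2, 0.07 to 0.38 for Ngfr and -0.07 to 0.64 for Ntf5. The sign turned for Ntrk3 (-0.0107 to 0.108) without WT replicate 4 and for Sort1 (-0.0261 to 0.0684) without WT replicate 4 or T29-1 Cre replicate 4. With both WT replicates 1 and 4 left out, chosen after seeing the data, Ntrk3 and Sort1 were at -0.00661 and -0.0199, Bdnf at -0.10 and Ngfr at 0.48 (unadjusted p = 0.0356, edgeR). Bdnf had an unadjusted p under 0.05 in 10 of 17 alternatives (0.007 to 0.147). The block with the shared replicate numbers gave -0.12 for Bdnf and changed no member's call. Same-numbered libraries deviated with correlations of -0.141 to 0.126, and libraries of unlike number with -0.261 to 0.194. These values show no sign of pairing by number, but they cannot tell whether mice or preparations were paired. Of the 6 list medians, 2 changed sign with a library left out, those of the kinase cascades and of the BDNF-inducible genes. Depth limits Ntf5 and Ngfr most.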
